A study of Mus musculus with 36 samples.

Results

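The 3807 regions described here were bound by wild-type Pax5 and by its K198R form and were not kept for its K198Q form, out of 10760 regions found in the series with any of the 3 forms. They were chosen from 6 deposited lists of chromatin immunoprecipitation (ChIP) peaks, 2 for each form. Within a form, a peak was kept if at least 1 bp of it overlapped a peak of the other list, the kept peaks were merged, and the merged peaks of the 3 forms were then joined into regions. A region entered the set if kept peaks of Pax5Wt and of K198R lay in it and no kept peak of K198Q did. The set held 35.4% of all regions. Another 2281 regions (21.2%) had all 3 forms, 2975 (27.6%) had K198R only and 1596 (14.8%) had Pax5Wt only, whereas 53 regions had K198Q with K198R, 36 had K198Q with Pax5Wt and 12 had K198Q only.

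Pax5 is the transcription factor that commits lymphoid progenitors to the B cell lineage. It turns on genes of the pre-B cell receptor and its signalling and turns off genes of other lineages. Acetyl groups on lysines of such factors are removed by deacetylases of the sirtuin family, among them SIRT7. Glutamine in place of a lysine (K198Q) resembles the acetylated residue, and arginine (K198R) keeps the positive charge but cannot be acetylated.

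The ChIP libraries came from cultured mouse pro-B cells of Pax5-/- genotype that carried a retroviral vector for Pax5Wt, K198Q or K198R, with 2 libraries of each and an antibody to Pax5. RNA was sequenced from the same 3 groups and from Pax5-/- cells with the empty vector (EV), 2 libraries per group. A second RNA experiment, normalized separately, held Wt cells with EV and Sirt7-/- cells with EV, Pax5Wt or K198R, 2 libraries each, all of which retain their own Pax5 gene. The labels describe primary bone marrow pro-B cells, while the study's methods describe the Pax5-/- progenitors as coming from fetal liver. By the methods, transduced cells were sorted for a marker of the vector (human CD4) and grew on OP9 stromal feeder cells with IL-7, SCF and FLT3-L. Replicates were generated on different days, and no number in the labels ties a ChIP library to an RNA library.

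In the Pax5 transcript itself, EV libraries held 2201 and 2103 normalized counts, Pax5Wt libraries 6458 and 6152, K198Q libraries 8918 and 8963, and K198R libraries 21162 and 16609. K198R cells held the most and did not overlap any other group. The difference between K198R and Pax5Wt reached 1.57 in log2 terms (limma adjusted p = 0.00290, SE 0.118). Reads of the deleted allele and of the vector were not separated in these counts, the amount of Pax5 protein was not measured in these files, and its part in the results below was not tested.

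The lists differed in length. The Pax5Wt lists held 10646 and 11830 peaks and the K198R lists 12158 and 13997, against 3750 and 3957 for K198Q. The regions described here were 62.5% of the 6088 regions shared by Pax5Wt and K198R (Wilson 95% interval 61.3 to 63.7, which covers counting error only). When every list was cut to its 3750 peaks of lowest q, a choice made after seeing the data, 370 regions met the rule. They were then 19.7% (18 to 21.6) of the regions shared by Pax5Wt and K198R, and 1507 regions had all 3 forms. The same cut left 807 regions with K198Q but without another form, where the full lists had 53 of K198Q and K198R, 36 of Pax5Wt and K198Q and 12 of K198Q alone. By the study's account the ChIP libraries had close to equal numbers of reads. Immunoprecipitation efficiency and a difference in occupancy cannot be told apart from lists of peaks. The peaks inside the second K198R list carry another replicate number in their names. Without that list, 4188 regions met the rule.

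Sequences are shown for 6 of the regions, because they hold letters of the core of the Pax5 recognition sequence and lie at genes or regions described below. Each is 150 bases of the RefSeq GRCm38 sequence, read on the plus strand 5′ to 3′, and capitals mark the match to GCGTGAC or, for Fcrla and Ikzf3, to the looser GCNTGAC, on either strand. They lie at chr13:5861243-5861392 (Klf6), chr15:61984949-61985098 (Myc), chr12:69791290-69791439 (Cdkl1), chr3:84022988-84023137 (an intron of Tmem131l), chr1:170928532-170928681 (Fcrla) and chr11:98545909-98546058 (Ikzf3).
Klf6: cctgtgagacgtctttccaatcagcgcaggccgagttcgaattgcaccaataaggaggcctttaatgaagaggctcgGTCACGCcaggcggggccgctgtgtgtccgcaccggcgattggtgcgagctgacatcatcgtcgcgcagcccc
Myc: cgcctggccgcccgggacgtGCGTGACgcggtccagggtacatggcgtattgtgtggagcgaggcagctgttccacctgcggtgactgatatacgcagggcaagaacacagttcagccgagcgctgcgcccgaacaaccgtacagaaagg
Cdkl1: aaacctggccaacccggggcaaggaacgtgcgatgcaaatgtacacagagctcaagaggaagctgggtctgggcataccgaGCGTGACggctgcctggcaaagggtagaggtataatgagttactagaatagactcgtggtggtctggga
Tmem131l: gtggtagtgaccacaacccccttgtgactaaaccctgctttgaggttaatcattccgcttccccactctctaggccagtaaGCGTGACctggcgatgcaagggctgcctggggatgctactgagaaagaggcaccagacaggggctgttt
Fcrla: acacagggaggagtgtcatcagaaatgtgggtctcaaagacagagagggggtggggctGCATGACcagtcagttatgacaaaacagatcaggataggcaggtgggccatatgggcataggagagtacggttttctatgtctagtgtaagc
Ikzf3: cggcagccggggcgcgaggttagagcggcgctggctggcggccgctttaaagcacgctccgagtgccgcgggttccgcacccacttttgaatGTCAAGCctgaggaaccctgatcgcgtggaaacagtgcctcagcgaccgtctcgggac
Matches at Klf6, Cdkl1 and Tmem131l were centred 5, 9 and 9 bp from the summit, and those at Fcrla and Ikzf3 14 and 20 bp from it. In the Myc region, the match lay 104 bp from the summit. A match of these letters is a description of the sequence and does not show that Pax5 touches it.

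Peaks of these regions were of moderate height. Fold enrichment over input at the summit had a median of 5.87 and 6.12 in the 2 Pax5Wt lists and of 6.13 and 6.71 in the 2 K198R lists. From the 10th to the 90th percentile, the regions spanned 3.92 to 9.23 and 3.99 to 9.35 for Pax5Wt, and 3.97 to 9.42 and 4.27 to 10.6 for K198R. Regions of all 3 forms had higher medians, 9.83 and 10.1 for Pax5Wt, 9.43 and 11.3 for K198R, and 6.31 and 6.54 for K198Q. Those of Pax5Wt only had medians of 5.19 and 5.31, and those of K198R only 5.28 and 5.44. These values come from the peak calls that chose the regions and are given as a description, with no test.

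**Figure D1:**
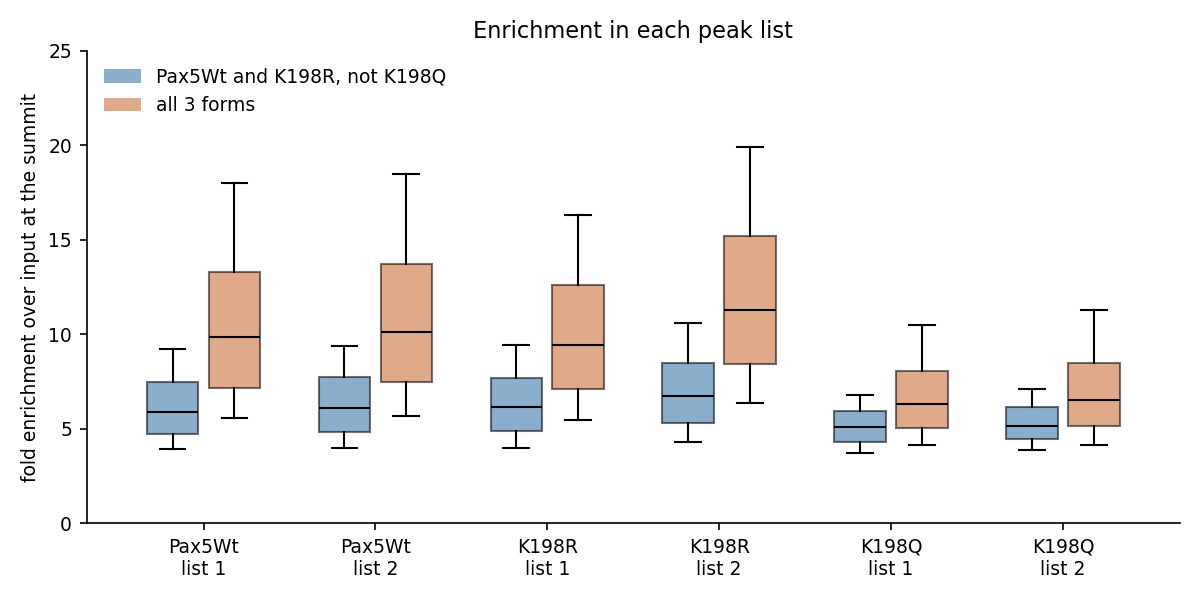
Fold enrichment over input (vertical axis, linear) in each of the 6 peak lists for regions of Pax5Wt and K198R without K198Q (blue) and regions of all 3 forms (orange). Lines are medians, boxes span the 25th to 75th and whiskers the 10th to 90th percentile. Blue boxes at the right show only K198Q peaks not shared by both lists (819 in list 1 with a median of 5.09, 991 in list 2 with 5.15). Blue medians lie between 5.87 and 6.71 for Pax5Wt and K198R, below the orange ones.

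Absence of K198Q from the kept set did not mean absence from both lists. A K198Q peak lay in at least 1 list in 1788 of the 3807 regions (47.0%, 45.4 to 48.6). It was in list 1 only at 797 regions (20.9%) and in list 2 only at 969 (25.5%), and 22 regions had a peak in each list that did not overlap the other. The remaining 2019 regions (53.0%) had no K198Q peak in either list. Summits of the 1810 K198Q peaks in these regions lay close to the summit of the region, at a median of 34.0 bp, and 86.2% were within 100 bp. Regions without any K198Q peak had median enrichments of 5.57 and 5.63 for Pax5Wt and 5.78 and 6.14 for K198R, against 6.44, 6.73, 6.67 and 7.32 where K198Q had a peak. At the edge of the rule, the 22 regions with unshared peaks in both K198Q lists had gaps of 15 to 812 bp (median 110.5) between those peaks. The closest pair lay 336 bp from the start of Fkbp2, 15 bp apart, with enrichments of 5.20 and 5.92 for Pax5Wt, 8.95 and 11.1 for K198R, and 4.80 and 4.24 for K198Q. Just inside the class of all 3 forms, the smallest overlap between K198Q lists was 22 bp, in a region 37430 bp from 1700016H13Rik with 8.47 and 5.55 for Pax5Wt, 5.52 and 7.08 for K198R, and 4.31 and 4.59 for K198Q.

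The share of regions without K198Q fell with Pax5Wt enrichment. Both measures come from the peak calls that the rule used, so this is a description. The 6088 regions shared by Pax5Wt and K198R were ordered by mean Pax5Wt enrichment and split into 4 groups of 1522. From the weakest to the strongest group, regions without a kept K198Q peak made up 92.0%, 82.0%, 59.9% and 16.2%. Regions without a K198Q peak in either list made up 61.5%, 45.7%, 22.5% and 2.96%.

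**Figure D2:**
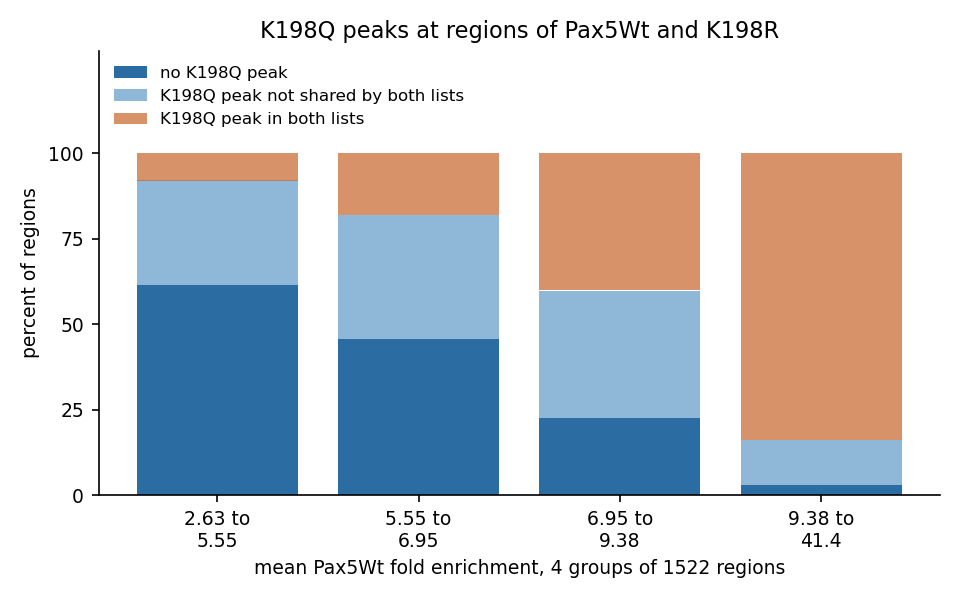
Share of regions (vertical axis, percent) in 4 groups of 1522 regions of Pax5Wt and K198R, ordered by mean Pax5Wt fold enrichment (horizontal axis, range of each group). Dark blue regions had no K198Q peak, light blue ones a K198Q peak not shared by both lists, and orange ones a K198Q peak shared by both lists. Both blue parts together fall from 92.0% in the weakest group to 16.2% in the strongest.

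The strongest regions of the set were near K198Q calls. Ranked by the lowest of their 4 Pax5Wt and K198R enrichments, the first 10 had a K198Q peak in 1 list in 10 of 10 cases, and the first 100 in 83 cases. The ranks and the K198Q peaks come from the lists that chose the regions, so these counts are a description. At the head of the order, a region 11230 bp upstream of Map3k1, a kinase of the JNK pathway, had 13.6 and 15.1 for Pax5Wt, 13.9 and 20.7 for K198R and 6.35 in K198Q list 1. The eighth, in Ttc33 and 844 bp from the nearest of its annotated starts (chr15:5187882-5188424, intron), had 11.5, 13.3, 11.8 and 10.6, and 9.68 in K198Q list 1. At the ninth, the Tmem131l intron whose sequence is shown above, the values were 10.3, 12.4, 10.1 and 10.2, and 7.56 in K198Q list 2. Only 2 of these 10 regions lay within 1 kb of a transcription start, at Ttc33 and Mfsd13b.

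Overlapping peaks of Pax5Wt and K198R were required by the rule, so their places and heights are a description. Their summits were a median of 29.0 bp apart and within 50 bp of each other in 72.0% of regions. K198R over Pax5Wt enrichment had a median of 0.09 on the log2 scale. The second list over the first had medians of 0.05 for Pax5Wt and 0.12 for K198R. Between single lists of the forms, the medians were 0.04 and 0.02 for K198R list 1 over Pax5Wt list 1 and 2, and 0.17 and 0.14 for K198R list 2.

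Promoters made up about as large a share as in the regions of all 3 forms. Of the 3807 regions, 52.2% (50.6 to 53.8) lay within 1 kb of the start of a protein-coding transcript, against 51.6% (49.5 to 53.6) of regions of all 3 forms, 45.7% (44.0 to 47.5) of those of K198R only and 37.3% (34.9 to 39.7) of those of Pax5Wt only. Their median distance to a start was 684 bp and 12.2% lay over 50 kb away. By annotation, 41.7% of summits were intergenic, 34.4% intronic, 18.7% in untranslated and 5.23% in coding parts of exons. Regions had a median length of 486 bp, a median GC content of 60.0% and a median of 16.0 CpG sites in the 300 bp around the summit. In regions of Pax5Wt only the median GC content was 55% with 7.0 CpG sites. Regions of K198R only had 57.0% and 10.0. Regions of all 3 forms had the same medians as the set, 60.0% and 16.0. The set took between 31.2% (chromosome 2) and 39.1% (chromosome 14) of the regions of a chromosome.

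The Pax5 core motif was less frequent than in regions of all 3 forms. GCGTGAC, on either strand, was found in the 300 bp around the summit in 247 of 3806 regions (6.49%, 5.75 to 7.32), against 10.3% (9.13 to 11.6) of regions of all 3 forms, 4.83% (3.88 to 6.0) of those of Pax5Wt only and 4.44% (3.75 to 5.24) of those of K198R only. It was in 2.09% of all 32851 RefSeq promoter windows of the same length and in 6.50% of all regions. The looser GCNTGAC, which includes GCGTGAC, was in 18.6% (17.4 to 19.9) of the set, 25.4% (23.7 to 27.3) of regions of all 3 forms and 10.7% of RefSeq promoters. Among promoter regions GCGTGAC was in 7.30% (6.23 to 8.53) of the set and 12.5% (10.7 to 14.5) of regions of all 3 forms. Away from promoters the share was again lower in the set, at 5.61% (4.64 to 6.76) against 7.98% (6.52 to 9.73). These intervals overlapped slightly, and the difference was not tested. Matches lay a median of 33.5 bp from the summit, and 64.0% were within 50 bp. In 4 groups of rising Pax5Wt enrichment, the motif was in 5.15%, 5.78%, 6.94% and 8.10% of the set. The strongest of those groups (mean enrichment 7.26 to 16.4) had 8.10% (6.53 to 10.0), while the weakest group of the regions of all 3 forms (2.63 to 7.67) had 9.47% (7.33 to 12.2), and these intervals overlapped. The weakest group of the set had an interval of 3.92 to 6.74, which also overlapped that of its strongest group. In regions of all 3 forms the 4 groups held 9.47%, 9.65%, 10.9% and 11.2%. Motif shares were not used by the rule. Enrichment differed between the classes, and its part in the motif shares was not tested.

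Letters bound by other factors of B cells were also counted, on either strand. The EBF1 pattern TCCCNNGGG was in 14.4% of the set, 13.8% of regions of all 3 forms and 6.56% of RefSeq promoters. RUNX letters TGTGGTT were in 8.51% and 9.65% of these region classes and 5.27% of RefSeq promoters. PU.1 letters GAGGAAGT were in 5.10% of the set (RefSeq 3.20%) and ETS letters CCGGAAGT in 4.91% (RefSeq 3.89%). The E-boxes CAGGTG and CAGCTG were in 23.8% and 24.5% (RefSeq 20.2% and 16.3%), and the SP/KLF letters GGGCGGG in 33.1% (RefSeq 25.6%). Ikaros letters TGGGAA, in 20.2%, and the NFY letters CCAAT, in 27.1%, were less frequent than in RefSeq promoters, with 25.6% and 37.4%. The set was a mixture of promoter and distal regions, and these shares differed between them. In its promoter regions RUNX letters were in 2.72% (2.09 to 3.53) and PU.1 letters in 2.82% (2.18 to 3.64), below and near the RefSeq shares, and in its distal regions in 14.8% and 7.59%. The E-boxes were in 19.3% and 17.4% of promoter regions and 28.8% and 32.2% of distal ones. SP/KLF letters were in 55.2% of promoter and 9.02% of distal regions, ETS letters in 8.56% and 0.935%, and the EBF1 pattern in 11.8% and 17.2%. Some of these patterns overlap each other, and the base composition of the windows was not matched.

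**Figure D3:**
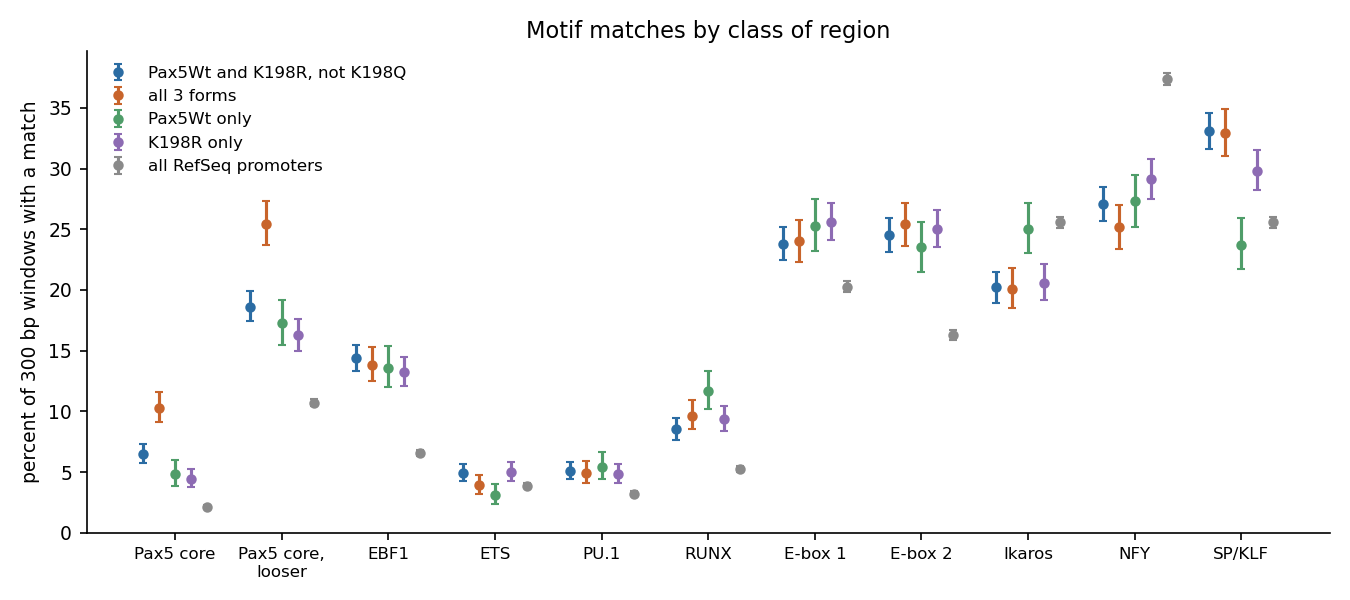
Percent of 300 bp windows (vertical axis) with a match to each of 11 patterns (horizontal axis; E-box 1 is CAGGTG and E-box 2 is CAGCTG) for 4 classes of region and all RefSeq promoters. Points are shares and bars Wilson 95% intervals. The Pax5 core is at 6.49% in regions of Pax5Wt and K198R without K198Q (blue) and 10.3% in regions of all 3 forms (orange), whereas the EBF1 intervals of both overlap.

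To read RNA beside binding, each region was linked to the nearest protein-coding start within 10 kb. This linked 2589 of the 3807 regions to 2366 genes, 10.8% of the 21951 protein-coding genes annotated. Of these, 196 genes had at least 2 such regions, and 203 also had a region of all 3 forms. Genes reaching 10 normalized counts in 2 or more of the 8 libraries were tested, which left 2213 of the 2363 linked genes in the table of the Pax5-/- cells (93.7%, against 57.8% of all protein-coding genes). Linked genes were expressed higher than protein-coding genes as a whole, with a median of the mean normalized count of 1538 against 868. Binding and RNA were not measured in the same libraries, and the nearest gene need not be the regulated one.

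Between K198Q and Pax5Wt, which differ in these regions by the rule, few genes were called anywhere. With 2 libraries per group, few calls do not show that few genes changed. A gene was called with a limma adjusted p under 0.05, taken over all 13345 tested, and a change of at least 1.5 on the log2 scale. None of the 2213 linked genes was called higher in K198Q (0% of all tested genes) and none lower (0.0225% of all tested). With the replicate number as a block, 0 linked genes were called higher and 0 lower, with 0.0300% and 0.0749% of all tested genes. At an unadjusted limma p under 0.05, 31 linked genes were higher and 42 lower, where 1.81% and 1.66% of all tested genes were. Median differences were -0.01 in linked genes and -0.01 in all genes. With 2 libraries per group an exact permutation test cannot give a p below 0.33, so that calls rest on the spread shared across genes by limma, and p-values measure the spread between these libraries.

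K198R against K198Q gave more calls. Of the linked genes, 16 were higher (0.723%, with 0.472% of all tested genes) and 20 lower (0.904%, with 2.05% of all). In this comparison and against EV, the higher genes counted include Klhl14, which passed the filter on low values through its K198R libraries alone. Without K198Q replicate 1 the percentages were 0.271 and 0.0905, without K198Q replicate 2 0.226 and 0.0452, and without K198R replicate 2 0.407 and 0.453. Without K198R replicate 1, the share of lower genes was 1.59%. With the adjusted p alone, 62 linked genes were higher (2.80%, 2.19 to 3.58, with 1.45% of all) and 61 lower (2.76%, with 3.55% of all). Genes linked to regions of all 3 forms had 2.44% higher and 2.81% lower. K198R against Pax5Wt gave 10 higher (0.452%, with 0.285% of all) and 13 lower (0.587%, with 1.31% of all), and by adjusted p alone 28 higher (1.27%, with 0.772% of all) and 31 lower (1.40%, with 2.10% of all). Leaving out a library moved these called shares to between 0.0452% and 0.407% higher and between 0.0452% and 1.31% lower.

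Against EV, Pax5Wt had 30 linked genes higher (1.36%, with 1.26% of all tested genes) and 1 lower (0.0452%, with 0.262% of all), and without either Pax5Wt library the higher share was 0.724% or 0.723%. K198Q had 16 higher (0.723%, with 0.629% of all) and 0 lower (0.0300% of all), and its higher share fell without either K198Q library. K198R had 46 higher (2.08%, with 1.45% of all) and 33 lower (1.49%, with 3.13% of all). The lower share was 0.814% without EV replicate 1, 0.769% without EV replicate 2, 2.27% without K198R replicate 1 and 0.951% without K198R replicate 2. By adjusted p alone K198R had 145 higher (6.55%, 5.59 to 7.66, with 3.87% of all) and 118 lower (5.33%, with 6.05% of all), and genes linked to all 3 forms had 7.62% and 4.59%. By the same measure Pax5Wt had 65 higher (2.94%, with 2.25% of all) and 19 lower (0.859%, with 1.0% of all), and K198Q 24 higher (1.08%, with 0.869% of all) and 0 lower (0.0525% of all). With the replicate number as a block, 6 linked genes were lower in Pax5Wt than in EV (0.271%, with 0.794% of all) and 1 in K198Q (0.0452%, with 0.0525% of all), and in K198R 2.17% were higher (1.79% of all) and 1.76% lower (3.90% of all). These comparisons share the EV libraries, and the part of the higher expression of linked genes was not tested.

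**Figure D4:**
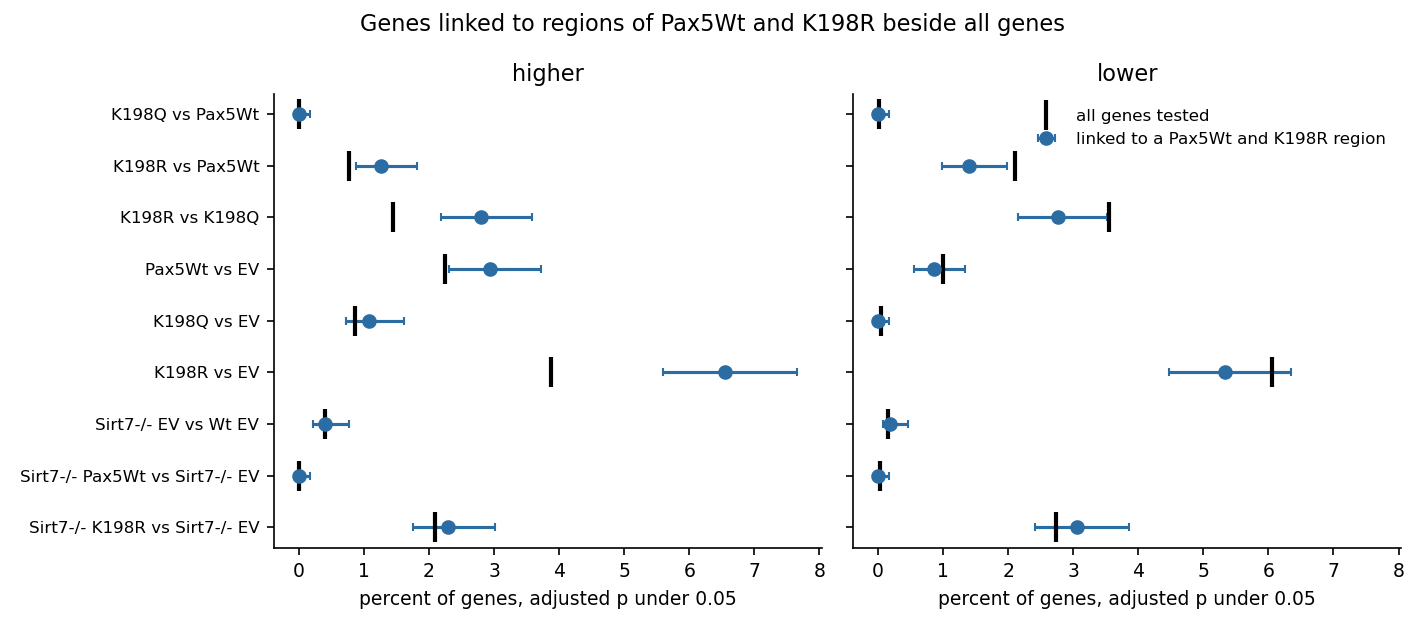
Percent of genes (horizontal axis, linear) with a limma adjusted p under 0.05, higher at the left and lower at the right, in 9 comparisons. Blue points are genes linked to regions of Pax5Wt and K198R without K198Q, with Wilson 95% intervals for counting error, and black bars are all genes tested. For K198R against EV the linked genes are at 6.55% higher, beside 3.87% of all genes, whereas K198Q against Pax5Wt is at 0 in linked genes.

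Growth genes Klf6, Myc, Mycn and the germinal centre repressor Bcl6 were among the linked genes. Each had a region of Pax5Wt and K198R at its start, without a K198Q peak in either list. The Klf6 region (chr13:5861082-5861678), 164 bp upstream of the start, had enrichments of 5.24 and 8.33 for Pax5Wt and 6.76 and 9.63 for K198R. Of the 2 Myc regions, chr15:61984848-61985628 lay 315 bp upstream (4.94, 4.25, 4.35 and 7.41) and chr15:61986902-61987219 lay 26 bp from another annotated start, in an untranslated part, (3.65, 5.06, 6.10 and 7.41). Bcl6 had chr16:23988677-23989129 (5.33, 4.66, 7.06 and 5.60) and Mycn chr12:12941569-12942035 (5.36, 6.06, 6.93 and 9.49).

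None of these 4 genes passed the test between K198Q and another form in the fit without a replicate block. Klf6, a zinc finger factor, held 1525 and 1019.6 normalized counts in EV, 1131 and 1350.1 in Pax5Wt, 1261 and 1069.7 in K198Q, and 1349 and 1479 in K198R. Myc held 17025 and 12712, 18082 and 14667, 19758 and 13889, and 21449.8 and 13444 in the same order, and Bcl6 247 and 172, 149 and 179.7, 158 and 183, and 292 and 216. All groups of Myc overlapped. K198R lay above K198Q for Klf6 (0.28 in log2 terms, SE 0.198, limma adjusted p = 0.567) and Bcl6 (0.56, SE 0.253, adjusted p = 0.316), and overlapped EV in both. Mycn, a relative of Myc, held 3129 and 2343 in EV, 1872 and 1198 in Pax5Wt, 2782 and 1564 in K198Q, and 1149.7 and 901 in K198R. K198R and EV did not overlap for Mycn (-1.41 in log2 terms, SE 0.312, limma adjusted p = 0.0289, below the fold minimum). Without EV replicate 1, EV replicate 2 or K198R replicate 2, its adjusted p was 0.166, 0.0731 and 0.129. With the replicate block, Mycn passed the adjusted p between K198R and K198Q (-1.03, limma adjusted p = 0.00172) and between Pax5Wt and EV (-0.85, adjusted p = 0.00396).

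**Figure D5:**
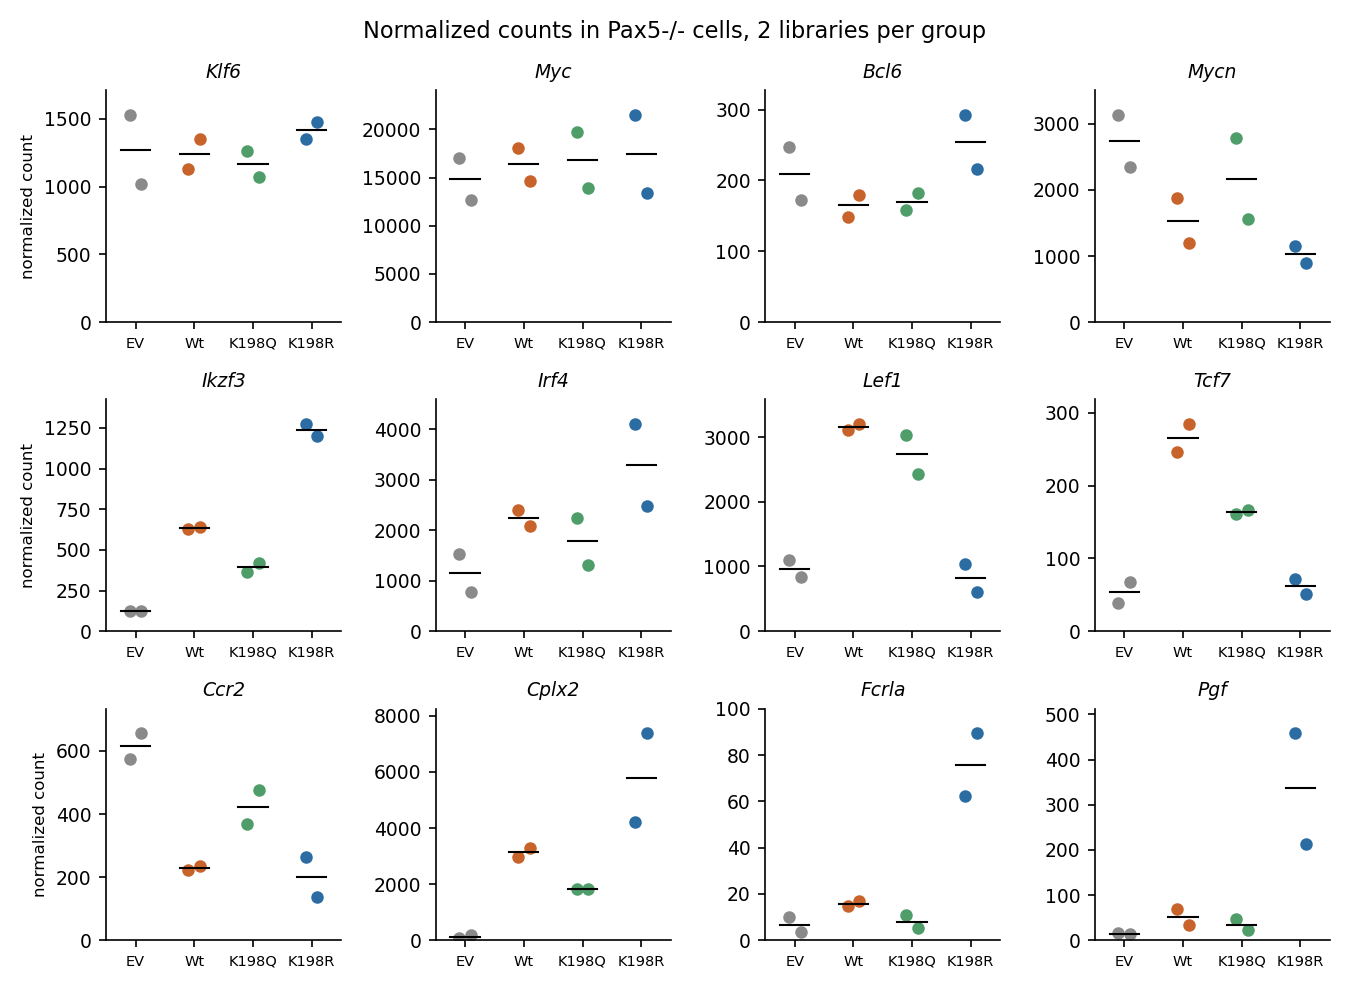
Normalized counts (vertical axes, linear from 0, a scale for each gene) of 12 linked genes in Pax5-/- cells with EV, Pax5Wt (Wt), K198Q or K198R. Points are the 2 libraries of a group and lines their mean. Myc overlaps between all groups and Klf6 in K198R lies within the range of EV, Ikzf3 lies lowest in EV and highest in K198R, and Lef1 and Tcf7 are high in Pax5Wt and K198Q and low in EV and K198R.

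Ikzf3, which encodes the Ikaros family factor Aiolos, followed the forms closely. Its region (chr11:98545619-98546255), 184 bp from the nearest start, had enrichments of 3.23 and 5.59 for Pax5Wt and 5.33 and 5.19 for K198R and no K198Q peak. Normalized counts were 123 and 127 in EV, 627 and 639 in Pax5Wt, 364 and 420.1 in K198Q, and 1272 and 1201 in K198R, and no groups overlapped. Against EV the log2 difference was 2.33 in Pax5Wt (SE 0.138, limma adjusted p = 0.000245), 1.64 in K198Q (0.00201) and 3.30 in K198R (2.54e-05). K198R exceeded K198Q by 1.66 (adjusted p = 0.00306). These calls were kept with each of the 8 libraries left out in turn. Ikzf3 thus rose in K198Q cells as well, and K198Q against Pax5Wt was -0.69 (adjusted p = 0.340).

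Irf4, a factor of pre-B and plasma cells, had an intronic region (chr13:30751176-30751533; 7.78, 6.06, 4.90 and 9.20, no K198Q peak). EV libraries held 1519.6 and 768 normalized counts, Pax5Wt 2392 and 2091, K198Q 2247 and 1316, and K198R 4095 and 2469.8. K198R lay above the other groups. It exceeded EV by 1.56 in log2 terms (SE 0.380, limma adjusted p = 0.0415), with an adjusted p of 0.185 without EV replicate 2, 0.132 without K198R replicate 1, and 0.0696 and 0.0697 without Pax5Wt replicate 1 or 2. With the replicate block, Irf4 also passed the adjusted p between Pax5Wt and EV (1.05, limma adjusted p = 0.00634) and between K198R and K198Q (0.89, adjusted p = 0.0107).

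Lef1 and Tcf7, which encode the related factors LEF1 and TCF1 of lymphoid progenitors and T cells, had another pattern. Lef1 had 2 regions upstream of its start, each with a K198Q peak in 1 list, and Tcf7 a region 365 bp upstream (chr11:52283236-52283545; 3.38, 7.05, 7.24 and 5.55) without K198Q peaks. Normalized counts of Lef1 were 1092 and 830.2 in EV, 3114 and 3196 in Pax5Wt, 3038 and 2429.5 in K198Q, and 1042 and 611 in K198R. For Tcf7 they were 38.9 and 67.4, 246 and 284, 160.2 and 167, and 71.9 and 51.4. Both genes were high in Pax5Wt and K198Q and low in EV and K198R. For Tcf7, K198Q against EV did not pass (1.65, limma adjusted p = 0.0734). Its difference between K198R and K198Q was below the fold minimum (-1.41, limma adjusted p = 0.0447) and did not pass under every left-out library. K198Q exceeded EV by 1.51 for Lef1 (limma adjusted p = 0.0416, and between 0.0947 and 0.341 without any 1 library other than those of K198R). Lef1 differed by 1.73 between Pax5Wt and EV (SE 0.250, limma adjusted p = 0.0130), by -1.98 between K198R and Pax5Wt (0.0102) and by -1.77 between K198R and K198Q (0.010). Leaving out Pax5Wt replicate 1 or 2 gave adjusted p of 0.0792 and 0.107 for the first and 0.0671 and 0.106 for the second, EV replicate 2 gave 0.0899 for the first, and K198Q replicate 1 or 2 gave 0.0762 and 0.0681 for the third. Tcf7 differed by 2.34 between Pax5Wt and EV (SE 0.312, limma adjusted p = 0.00838) and by -2.10 between K198R and Pax5Wt (0.0156). Without Pax5Wt replicate 1 or 2 these adjusted p were 0.0596 and 0.0975 for the first and 0.0918 and 0.148 for the second, which was 0.0621 without K198R replicate 2. Of the T cell markers, Thy1 was likewise higher in Pax5Wt (59 and 92.5 normalized counts) and K198Q (55.3 and 85.4) than in EV (23.8 and 31.5) and K198R (8.09 and 8.15), while Cd3e was at 0 in all but K198R replicate 1 and Cd3g was highest in EV (25.6 and 24.2). The part of these markers in the values of Lef1 and Tcf7 was not tested.

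Ccr2, a chemokine receptor of monocytes, was highest without Pax5. Its region (chr9:124108410-124108746) had 7.15 and 9.61 for Pax5Wt, 6.82 and 4.44 for K198R and a peak of 5.09 in K198Q list 1. EV libraries held 576 and 656 normalized counts, Pax5Wt 224 and 234, K198Q 367 and 475, and K198R 265 and 136. EV lay above all other groups and K198Q above Pax5Wt and K198R. K198R differed from EV by -1.69 in log2 terms (SE 0.300, limma adjusted p = 0.0117), with 0.0596 and 0.0784 when EV replicate 1 or 2 was left out. Pax5Wt differed from EV by -1.42 (limma adjusted p = 0.0493), with 0.0814 to 0.251 without either library of EV, K198Q or Pax5Wt. With the replicate block, K198R against K198Q was -1.14 (limma adjusted p = 0.0383).

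The largest rises from EV to Pax5Wt among linked genes were in genes of varied function. Cplx2, a complexin of regulated secretion, held 77.4 and 171 normalized counts in EV, 2964 and 3289 in Pax5Wt, 1829.9 and 1842 in K198Q, and 4216 and 7377 in K198R, a difference of 4.75 between Pax5Wt and EV (SE 0.367, limma adjusted p = 0.000828). Atp1b1, a subunit of the sodium pump, held 129 and 106, 2055 and 1960.0, 1319 and 823, and 5436 and 6250.2 (4.09, SE 0.216, adjusted p = 0.000175), and exceeded K198Q in K198R by 2.48 (adjusted p = 0.00346). Rtl5, a gene derived from a retrotransposon, held 28.1 and 42.4, 656 and 584, 414 and 276, and 1144 and 1631 (4.13, SE 0.286, adjusted p = 0.000496). In all 3 genes the order of the groups was EV, K198Q, Pax5Wt and K198R without overlap, and these calls were kept with each library left out. Genes of these largest calls were named only where Pax5Wt and EV libraries did not overlap, so that part of the order was fixed by the choice. The share of all tested genes with this order was not counted. With the replicate block, Cplx2 also passed between K198R and K198Q (1.60, limma adjusted p = 0.00545).

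Begain, a partner of synaptic scaffold proteins, had 2.33 and 0.876 normalized counts in EV, at or under the floor of 3 counts, and 58.7 and 60.5 in Pax5Wt, 51.6 and 29.0 in K198Q, and 135 and 111 in K198R. It was at least 19.9-fold higher in Pax5Wt than in EV (limma adjusted p = 0.00180), and with the replicate block it passed between K198R and K198Q (1.63, limma adjusted p = 0.0241). Cfap46, a protein of cilia, held 4.25 and 2.43, 50.4 and 88.2, 20.8 and 28.2, and 15.7 and 7.35, with its highest values in Pax5Wt. The difference to EV was 4.0 (SE 0.532, limma adjusted p = 0.00840), with 0.0619 without EV replicate 2 and 0.100 without Pax5Wt replicate 2. Cpeb2, a regulator of translation and the 1 linked gene called lower in Pax5Wt than in EV without a replicate block, held 267 and 238, 70.1 and 111, 91.8 and 95, and 116 and 82.3. EV lay above every other group, and Pax5Wt differed from it by -1.50 (SE 0.289, limma adjusted p = 0.0357). Its adjusted p was between 0.0739 and 0.207 without either library of EV, Pax5Wt or K198Q.

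Named genes higher in K198R than in K198Q are given here one by one. Genes named for the largest calls of this comparison, higher or lower, were chosen with K198R and K198Q libraries that did not overlap. Fcrla, an Fc receptor-like protein of B cells, held 9.82 and 3.41 normalized counts in EV, 14.6 and 16.8 in Pax5Wt, 10.9 and 5.13 in K198Q, and 62.1 and 89.4 in K198R, and was highest in K198R (3.14 over K198Q in log2 terms, SE 0.577, limma adjusted p = 0.0239). Without K198Q replicate 1 or 2 or K198R replicate 2 its adjusted p was 0.0756, 0.161 and 0.121. The Fcrla region (6.14 and 10.3 for Pax5Wt, 10.6 and 9.18 for K198R) had no K198Q peak.

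Klhl14, a BTB-kelch protein of B cells, was at 0 and 0 in EV, 4.28 and 3.80 in Pax5Wt, 1.05 and 0 in K198Q, and 24.8 and 18.7 in K198R, at least 7.25-fold higher in K198R than in K198Q. It passed the filter on low values through its K198R libraries alone, so no test of it is given. Cdkl1, a kinase related to cyclin-dependent kinases, held 0.667 and 1.98, 17.9 and 21.1, 2.62 and 9.83, and 57.7 and 98.1. K198R exceeded K198Q by 3.61 (SE 0.652, adjusted p = 0.0230), with 0.120, 0.0678 and 0.123 without K198Q replicate 1, K198Q replicate 2 and K198R replicate 2. Pgf, a growth factor of the VEGF family that also had a region of all 3 forms, held 16.2 and 12.8, 68.3 and 34.0, 46.0 and 22.8, and 458 and 214 (3.24 over K198Q, SE 0.524, adjusted p = 0.0157; 0.0545 and 0.116 without K198Q replicate 1 or 2), and with the replicate block it passed between Pax5Wt and EV (1.68, limma adjusted p = 0.0110). In these 3 genes K198R lay above all other groups, and against EV the K198R calls of Cdkl1 and Pgf were kept with each library left out.

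Beside Lef1, 5 named genes were called lower in K198R than in K198Q, and these 5 were called lower in K198R than in EV as well. Without EV replicate 1 the calls against EV were lost for Actn2 (limma adjusted p = 0.0501), Ggt5 (0.0754) and Eepd1 (0.105, and 0.0537 without EV replicate 2). Klhl30, of the kelch family, held 513 and 639.6 normalized counts in EV, 225 and 200.1 in Pax5Wt, 451 and 472 in K198Q, and 90 and 35.1 in K198R, and K198R differed from K198Q by -3.01 (SE 0.384, limma adjusted p = 0.00775; 0.0567 and 0.0726 without K198Q replicate 1 or 2). Eid2, an inhibitor of acetyltransferase-dependent differentiation, held 84.2 and 83.9, 62.6 and 46.5, 104 and 94.0, and 17.0 and 8.59 (-2.93, SE 0.368, adjusted p = 0.00752; 0.0615 and 0.0707 without these libraries). Ggt5, a gamma-glutamyl transferase, held 133 and 84.6, 49.5 and 24.7, 143 and 115, and 21.2 and 12.2 (-2.91, SE 0.442, adjusted p = 0.0123; 0.0947 and 0.0860). The groups of these genes ran from EV and K198Q at the top through Pax5Wt to K198R at the bottom. Actn2, a muscle actinin, was at 0.392 and 0 in K198R against 7.75 and 15.8 in K198Q, at least 3.93-fold lower (limma adjusted p = 0.0184; 0.0694, 0.155 and 0.0711 without K198Q replicate 1, K198Q replicate 2 and K198R replicate 2). Eepd1, an endonuclease-like protein, held 589 and 367 in K198Q and 147 and 43.9 in K198R (-2.51, SE 0.537, adjusted p = 0.0402), and its adjusted p was between 0.0648 and 0.222 without any 1 library other than K198R replicate 1. With the replicate block, Pax5Wt against EV passed the adjusted p for Klhl30 (-1.43, limma adjusted p = 0.040), Ggt5 (-1.57, adjusted p = 0.0113) and Eepd1 (-1.30, adjusted p = 0.0230).

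Ttc33, at the eighth strongest region, held 656 and 685 normalized counts in EV, 864 and 929.7 in Pax5Wt, 783 and 750.5 in K198Q, and 865 and 952 in K198R. EV was lowest and no comparison passed the call rule, although Pax5Wt against EV passed the adjusted p with the replicate block (0.42, limma adjusted p = 0.0287). Every group mean of Mfsd13b, the other gene with a start within 1 kb of these strongest regions, was at or under the floor of 3 counts, with 4.99 in K198Q replicate 1.

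Gene lists of the pathways around Pax5 were read for their linked members and described by counts. The lists include genes that the study named from these same data, among them Klf6, Myc, Bcl6, Blnk, Rag1, Irf4 and Zap70. The counts are therefore not independent of those results. Beside the linked counts of every list, 10.8% of all annotated protein-coding genes were linked, and 2213 of the 12552 protein-coding genes tested. Of 40 genes of B cell development and pre-B cell receptor signalling, 15 had a region of Pax5Wt and K198R and 17 one of all 3 forms, with 5 in both (Irf8, Spib, Syk, Lyn and Vpreb2). The 15 were mostly transcription factors and kinases (Tcf3, Ikzf3, Irf4, Irf8, Bach2, Bcl6, Lef1, Spib, Mef2c, Runx1, Stat5b, Syk and Lyn, with Vpreb2 and Dntt). Members with regions of all 3 forms alone included Cd79a, Cd79b, Blnk, Cd72, Cd22, Rag1 and Rag2, with the rest not named here. The difference between these groups was not tested. In K198R against EV, 6 of the 15 were higher by adjusted p alone and 0 lower (3.87% and 6.05% of all tested genes), and their median difference was 0.38 on the log2 scale, where that of all tested genes was 0.01. They were Vpreb2, Ikzf3, Irf4, Bach2, Spib and Stat5b. In Pax5Wt against EV 4 were higher (Vpreb2, Ikzf3, Bach2 and Lef1) and 0 lower (2.25% and 1.0% of all), and in K198Q against EV 2 (Ikzf3 and Lef1) and 0 (0.869% and 0.0525% of all). These counts are without a replicate block, with which Irf4 also passed in Pax5Wt against EV (limma adjusted p = 0.00634). Bach2, a repressor with 2 regions at its start, rose by 0.86 in Pax5Wt against EV (SE 0.113, limma adjusted p = 0.00787) and was 0.60 higher in K198R than in K198Q (0.0257). Spib, an ETS factor of B cells, was 1.15 higher in K198R than in Pax5Wt (SE 0.197, limma adjusted p = 0.0263). Leaving out 1 library in turn, the K198R calls of Ikzf3 and Bach2 against EV were kept in 8 of 8 cases, while those of Vpreb2, Spib and Irf4 were lost in 2, 3 and 4 of 8 and that of Stat5b in 8 of 8 (limma adjusted p 0.0679 to 0.183). In Pax5Wt against EV, Vpreb2 lost its call in 6 of 8 cases (up to 0.272) and Bach2 in 3 (up to 0.0771), as did Lef1 (up to 0.107). Between K198R and K198Q Bach2 lost its call in 3 of 8 (up to 0.152), and between K198R and Pax5Wt Spib lost its call in 5 of 8 (up to 0.193). Vpreb2, Bach2, Spib, Stat5b and the list genes of the next paragraphs that are named with a value here alone were singled out after their values were seen.

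Of 32 genes of other lineages and cytokine signalling, 6 were linked (Flt3, Zap70, Xbp1, Ccr2, Tcf7 and Lck) and 3 others had a region of all 3 forms. Of the 12552 protein-coding genes tested, 2213 were linked. By adjusted p alone, Flt3, the receptor for the FLT3 ligand of progenitors, was lower in Pax5Wt than in EV (-0.92, SE 0.123, limma adjusted p = 0.00844) and in K198R (-0.72, adjusted p = 0.0104). Zap70, a kinase of the T cell receptor, was lower in K198R than in EV (-0.97, SE 0.179, limma adjusted p = 0.0138). In Pax5Wt against EV 1 of the 6 was higher and 2 lower (2.25% and 1.0% of all tested genes), in K198R against EV 0 and 3 (3.87% and 6.05% of all), and in K198Q against EV 0 and 0 (0.869% and 0.0525% of all). With a library left out in turn, Ccr2 lost its call in Pax5Wt against EV in 6 of 8 cases (limma adjusted p up to 0.251), Flt3 in 3 of 8 (up to 0.0986, and in 2 of 8 for K198R, up to 0.0688), and Zap70 in 1 of 8 (0.0774). The medians were -0.47, -0.65 and -0.35, where those of all genes were 0.00, 0.01 and -0.01.

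Of 22 genes of the cell cycle and growth, 9 were linked (Myc, Mycn, Klf6, Ccnd1, Ccnd3, Cdkn1b, E2f1, Max and Mxd4) and 3 others had a region of all 3 forms. Among all 12552 protein-coding genes tested, 2213 were linked, and these list counts were not tested against that share. Mycn and the Myc antagonist Mxd4 were lower in K198R than in EV by adjusted p alone and 0 higher (6.05% and 3.87% of all tested genes), and Mxd4 was -0.53 in K198R against K198Q (SE 0.0973, limma adjusted p = 0.0242). With a library left out in turn, Mxd4 lost its call against EV in 6 of 8 cases (limma adjusted p up to 0.157) and against K198Q in 3 of 8 (up to 0.170). Without a replicate block, none of the 9 passed the test in Pax5Wt or K198Q against EV or between these forms (2.25% higher and 1.0% lower of all tested genes in Pax5Wt against EV). Of 26 chromatin regulators, 5 were linked (among them Hdac7, Chd4, Tle4 and Dnmt3a), and of 14 metabolic genes 2 (Pfkl and Nr3c1). No linked member of either list passed the adjusted p in the comparisons of Pax5-/- cells. Between 0% and 6.05% of all tested genes did, depending on the comparison and direction.

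Cell type markers moved with some of these results. Summed over 9 pro-B markers, EV libraries held 40395 and 46709 normalized counts, Pax5Wt 80342 and 86148, K198Q 71626 and 69435, and K198R 105366 and 109199. The groups were in the order EV, K198Q, Pax5Wt and K198R without overlap. Not every marker of the list followed it, since Ptprc held 16026 and 15919 in EV and 13797 and 12615 in K198R, and Il7r 3614 and 3058 in Pax5Wt and 2019 and 1799.6 in K198R. Summed over 7 myeloid markers, of which Fcer1g was the most abundant, the values were 4947 and 4729.8 in EV, 2577 and 2393 in Pax5Wt, 3874 and 3416 in K198Q, and 1726 and 885 in K198R. Lyz2 of this list ran the other way (49 and 34.7 in EV, 126 and 155 in Pax5Wt, 90.6 and 103 in K198Q, and 218 and 192 in K198R), while Fcer1g held 3932 and 3998, 2093 and 1927, 3127 and 2699, and 1068 and 473. Elane was at 0 in all but K198Q replicate 1. NK markers summed to 522 and 627, 233 and 262, 323 and 349, and 141 and 91.3, mostly Nkg7, with Ncr1 and Gzmb at 0 in every library. Of 8 T cell markers 7 were in the table, and they summed to at most 115 in any library, with 15.1 and 14.7 in K198R, mostly Thy1 in Pax5Wt and K198Q. OP9 stromal markers summed to between 806 and 2029, with Dcn and Lum at 0 throughout. Their sum had no order by form, but Pdgfrb did, with 785 and 718 in EV, 289 and 406 in K198Q, 216 and 260.1 in Pax5Wt, and 101 and 63.5 in K198R. In bulk RNA, fewer cells of a type and less RNA per cell cannot be told apart, and the part of these markers in the gene results was not tested.

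In the second experiment, with Sirt7-/- cells, 2222 linked genes were tested among 13651, and a call needed a limma adjusted p under 0.05. Sirt7-/- EV against Wt EV gave 9 linked genes higher (0.405%, with 0.410% of all tested) and 4 lower (0.180%, with 0.147% of all), and both shares were 0 without either Sirt7-/- EV library. Pax5Wt in Sirt7-/- cells gave 0 higher (0% of all) and 0 lower (0.0366% of all), with 96 higher and 103 lower at an unadjusted limma p under 0.05, where 5.44% and 4.48% of all tested genes were. K198R in Sirt7-/- cells gave 51 higher (2.30%, with 2.09% of all) and 68 lower (3.06%, with 2.74% of all). Without K198R replicate 2 these shares were 0.225% and 0.451%, without K198R replicate 1 0.811% and 0.901%, and without EV replicate 1 or 2 of Sirt7-/- cells 0.270% and 0.495% higher and 0.270% and 0.541% lower. With the replicate number as a block, the shares were 1.40% higher and 1.35% lower for Sirt7-/- EV against Wt EV (1.35% and 0.762% of all), 0.675% and 1.44% with Pax5Wt (0.872% and 1.09% of all), and 6.35% and 7.11% with K198R (5.51% and 6.12% of all). The number of calls thus rose in all genes as in linked genes under the block. Among list members, Tcf7 and the T cell kinase Lck were lower in K198R than in EV of Sirt7-/- cells (-2.09, SE 0.437, adjusted p = 0.0372, and -2.83, SE 0.629, 0.0461), Ccnd1 was higher (2.49, SE 0.555, 0.0465), and Ccnd3 was lower in Sirt7-/- EV than in Wt EV (-0.71, SE 0.108, 0.0396). Leaving out 1 library in turn, the calls of Lck, Ccnd1 and Ccnd3 were lost in 6 of 8 cases each (limma adjusted p up to 0.261, 0.234 and 0.264) and that of Tcf7 in 8 of 8 (0.0508 to 0.212). T cell markers, almost all Thy1, summed to 1963 and 1208 in Sirt7-/- EV, 811 and 312 with Pax5Wt, 655 and 333 with K198R and 1382 and 783 in Wt EV. In the same order, NK markers summed to 208 and 109, 239.5 and 103, 431 and 125, and 108 and 57.7, with Nkg7 at 373 in K198R replicate 1. OP9 stromal markers summed to 2239 and 3270.2, 3617 and 6596, 2649 and 5216, and 3192 and 2338, and myeloid markers, mostly Itgam, to between 689 and 1279 over the 8 libraries. The part of these markers in the calls was not tested.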

How the data were processed

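ChIP-seq and RNA-seq of cultured mouse pro-B cells were analysed from the deposited files. For ChIP, the authors aligned reads with Bowtie2 to mm10 and called peaks in each replicate against its own input with MACS2 (q under 0.05). The deposited lists give the fold enrichment (a ratio) over input and the −log10 q of each peak, and their ranks by q served for the cut to equal numbers. For RNA, the authors quantified reads with Salmon and deposited normalized counts, a signal scaled by the median of ratios of DESeq2, so raw depth is not given. Summed normalized counts per library ran from 28865461 to 30520853 for the Pax5-/- cells and from 27814214 to 30160880 for the second table. ChIP read totals, input libraries and the sorted-cell RNA table were not analysed here. Versions of Bowtie2, MACS2, Salmon and DESeq2 are not given in the sources used here.

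Regions were built as the report describes. Starts came from GENCODE M21 and sequence from RefSeq GRCm38, with 3806 of 3807 regions readable over the full window. Normalized counts were tested as log2(count + 1) with limma 3.58.1 in R 4.3.3 (all 4 groups of a table in 1 fit, a variance trend, Benjamini-Hochberg adjustment over all genes tested). Same-numbered libraries deviated together in every pair of groups (correlations across genes of 0.26 to 0.38 in the Pax5-/- table and 0.16 to 0.43 in the second), although the labels do not tie the numbers to a shared day or culture, so values with the replicate number as a block are given where they change a result. Fold changes on this scale understate those of low genes. A value at or under 3 normalized counts was taken as the floor in group means. The fit was also run on simulated data, from which no result is given here. Scripts ran in Python 3.11.15 with numpy 2.4.6, pandas 2.3.3, scipy 1.17.1 and matplotlib 3.10.9.

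Genes were named by rule: Klf6, Myc, Bcl6 and Mycn from the study, called members of the gene lists, the strongest regions' genes, and the largest calls in Pax5Wt against EV and K198R against K198Q. These largest calls were taken only among genes whose libraries did not overlap between the compared groups. Some genes that met these rules or lists are not reported here. The regions, lists and tests were chosen with earlier results of these data known.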

Additional observations from a re-analysis of the deposited data

Results flagged for a closer look

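For 10 of the named genes, both libraries of a form lay to one side of EV in Pax5-/- cells and to the opposite side in Sirt7-/- cells. For Ikzf3 and Cpeb2 this held with K198R and with Pax5Wt. For the other 8 genes it held with the form given here, and it did not hold with the other form. The 2 tables were normalized separately, the difference between them was not tested, and Sirt7-/- cells carry their own Pax5 (25995 and 37113 normalized counts in their EV libraries). The share of all tested genes with such opposite sides was not counted. With 2 libraries per group an exact permutation test cannot give a p below 0.33, so libraries of unchanged genes often separate. Some of these genes were also chosen among those without overlapping libraries in a comparison of Pax5-/- cells.

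With K198R, the log2 differences from EV in Pax5-/- and in Sirt7-/- cells were 5.58 and -0.60 for Cplx2, 5.62 and -0.40 for Atp1b1, and 5.62 and -0.27 for Begain. They were 3.30 and -0.33 for Ikzf3, 1.56 and -0.58 for Irf4, and 0.44 and -0.14 for Ttc33. Klhl30 (-3.32 and 1.25) and Cpeb2 (-1.36 and 0.88) lay below EV in Pax5-/- cells and above EV in Sirt7-/- cells. Cplx2 passed the test in both tables (limma adjusted p = 0.0219 in Sirt7-/- cells). The EV libraries of Sirt7-/- cells already held 16583 and 19263 normalized counts of Cplx2, against 11442 and 12119 with K198R.

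With Pax5Wt, the differences were 2.33 and -0.17 for Ikzf3, 2.34 and -0.63 for Tcf7, -1.50 and 1.09 for Cpeb2, and -1.57 and 1.08 for Ggt5.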

How the results depend on the processing

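The number of regions was 3807, between 2816 (without K198Q list 1) and 4929 (without Pax5Wt list 1) when a ChIP list was left out in turn, 2019 when a K198Q peak in either list was enough to drop a region, and 370 with the same number of peaks in every list. The promoter share was 52.2%, between 49.2% and 52.8% without a list, 49.2% with equal numbers of peaks, 55.5% within 2 kb and 40.5% within 200 bp of a start. The share with the Pax5 core was 6.49%, between 6.12% and 6.45% without a list, 8.67% with equal numbers of peaks, 18.6% for GCNTGAC and 9.09% over the whole region.

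Shares of linked genes called were small and moved with some choices, which differed between comparisons. With each RNA library left out in turn, K198R against Pax5Wt ranged from 0.0452% to 0.407% higher and from 0.0452% to 1.31% lower, K198R against K198Q from 0.226% to 0.678% and from 0.0452% to 1.59%, Pax5Wt against EV from 0.723% to 1.40% and from 0% to 0.181%, K198Q against EV from 0.362% to 0.725% higher, and K198R against EV from 1.49% to 1.99% and from 0.769% to 2.27%. In the second table, the ranges were 0% to 0.405% and 0% to 0.271% for Sirt7-/- EV against Wt EV, and 0.225% to 2.34% and 0.270% to 2.84% for K198R in Sirt7-/- cells. K198Q against Pax5Wt stayed at 0 in both directions under all 9 other settings and all 8 left-out libraries. With no fold minimum, K198R against Pax5Wt was 1.27% higher and 1.40% lower, K198R against K198Q 2.80% and 2.76%, Pax5Wt against EV 2.94% and 0.859%, and K198R against EV 6.55% and 5.33%. With no filter on low values these were 0.258%, 0.301%, 0.473% and 0.559% for the first pair of comparisons and 0% lower in Pax5Wt against EV. Without a variance trend, 0.587% were lower in K198R against K198Q and 0% in Pax5Wt against EV. The latter was also 0% with a pseudocount of 5 and where no K198Q peak in either list was required, 0.136% with quantile normalization and 0.0772% with genes linked within 50 kb, and K198Q against EV was 0.0452% lower with quantile normalization. Linking within 2 kb gave 0.259% higher in K198R against Pax5Wt, 0.465% higher in K198Q against EV and 0.931% lower in K198R against EV.

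For Sirt7-/- EV against Wt EV, the share higher was 0.257% linked within 2 kb, 0.180% with a fold minimum of 1.5, 0.173% with no filter and 0.180% without a variance trend. Its lower share was 0.0514% linked within 2 kb, 0.307% within 50 kb, and 0% with a fold minimum, no filter, no trend or quantile normalization. Pax5Wt in Sirt7-/- cells was 0.0384% lower linked within 50 kb. K198R in Sirt7-/- cells was 0.765% higher and 0.990% lower with a fold minimum, 1.38% and 1.69% with no filter, and 0.630% and 1.08% without a trend.

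The fit with the replicate number as a block raised most counts. With it, 0.271% were lower in Pax5Wt against EV, 0.0452% lower in K198Q against EV, 1.40% higher and 1.35% lower in Sirt7-/- EV against Wt EV, 0.675% higher and 1.44% lower with Pax5Wt in Sirt7-/- cells, and 6.35% and 7.11% with K198R in Sirt7-/- cells, beside the shares of all tested genes given with these results above. Of 82 values of named genes in the Pax5-/- table, 12 gained the adjusted p under the block and 0 lost it. The cause of these differences was not tested.

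Of 1060 values of named genes under alternatives, 885 kept direction and side of the threshold, 147 lost and 21 gained the call. The other 7 changed sign and were uncalled throughout: Cpeb2 in K198R against K198Q (-0.18 without K198R replicate 1 and 0.31 without K198R replicate 2), Klf6 in Pax5Wt against EV (0.28 and 0.11 without EV or Pax5Wt replicate 1), and Myc in K198R against K198Q (-0.22 and -0.30 without K198Q replicate 2 or K198R replicate 1, and 0.37 without K198R replicate 2) and in Pax5Wt against EV (-0.06 and -0.00 without EV replicate 2 or Pax5Wt replicate 1, and 0.36 without EV replicate 1). Lists of peaks hold no reads of regions without a peak, so weak K198Q signal below the peak threshold was not measured, and 2 libraries per group limit every RNA call.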

Other observations

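Several genes held more than 1 of the regions of Pax5Wt and K198R without K198Q. Sept9, a septin, had 4, and 25 genes had 3, among them Id3, an inhibitor of E proteins, Tgfbr2 and Smad3 of TGF-beta signalling, Csk, which restrains Src family kinases, and the cytokine receptor gene Il10ra. Sept9, Csk and Il10ra also had a region of all 3 forms, whereas Id3, Smad3 and Tgfbr2 did not. These genes were singled out after their counts were seen.

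Among regions of fewer forms, lists of the missing form often held an unshared peak. Of regions of Pax5Wt only, 69.5% had a K198R peak in at least 1 list, and of regions of K198R only, 61.0% had a Pax5Wt peak. K198Q peaks lay in 14.4% and 13.3% of these classes, against 47.0% of the regions of Pax5Wt and K198R.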
